A study of Mus musculus with 12 samples.

Results

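The collagen genes were described across 4 mouse lines of induced pluripotent stem (iPS) cells. Members were all genes with a symbol made of Col, a type number, the letter a and a chain number, measured by a probe set that the array annotation assigns to 1 gene. The rule found 44 of the 19938 genes on the array and itself used no measured difference between lines. The members and the other gene lists were, however, chosen with earlier results of these data known. Each gene was read from 1 probe set, the brightest by its mean over 12 arrays. A choice was needed only for Col6a5 and Col6a6, which have 2 probe sets each. By the textbook division of the family, 11 members encode fibrillar chains, 6 encode chains of the basement membrane collagen (type IV), and the other 27 encode all remaining types.

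The lines were LiPS-50 and LiPS-47, which per the labels lack tetraploid complementation competence, and LiPS-57 and LiPS-45, which have it. In tetraploid complementation the fetus is formed by the injected stem cells. All 4 lines came from C57BL/6J embryonic fibroblasts reprogrammed with 3 factors, whose names the labels do not give, and all were grown in stem cell medium. The labels do not say whether feeder cells were present or removed. Each line had 3 cultures, described as biological repeats, with 1 array each. A class of competence thus rests on 2 lines, and p-values between lines rest on how far cultures of the same line differ.

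Values are on the scale log2(intensity + 1) unless called a fold or a summed intensity. A fold is 2 raised to a difference on that scale, which understates the change of dim genes. Tests are limma's, with adjusted p-values by the Benjamini-Hochberg method over 28939 probe sets and a threshold of 0.05. The array gives no detection call, so a dim probe set cannot be separated from background. The number of arrays limits the precision. Levels of different genes are not compared, because probe sets differ in brightness for reasons unrelated to RNA amount. Median intensity per array lay between 50.1 and 53.1, so the arrays shared a scale. The 12 pluripotency markers, genes such as Pou5f1 and Nanog that define these cells, all had means above the 40th percentile of probe sets. Their summed intensity was 15751 to 16247 in LiPS-50, 17126 to 17773 in LiPS-47, 18028 to 18151 in LiPS-57 and 17539 to 17997 in LiPS-45. LiPS-50 was thus the lowest line in this sum, with no overlap. Its members went both ways: over LiPS-47, LiPS-57 and LiPS-45, 2, 1 and 1 of the 12 were called higher (Fgf4 in each case, and Nanog over LiPS-47 by 0.20) and 3, 4 and 5 lower, among them Lin28a and Sall4.

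Collagens are proteins in which chains wind into a triple helix. Fibrillar collagens (types I, II, III, V, XI, XXIV and XXVII) form the cables of connective tissue and are made in quantity by fibroblasts. Type IV chains form the flat network of basement membranes, and its chain genes lie in head-to-head pairs: Col4a1 with Col4a2, Col4a3 with Col4a4, and Col4a5 with Col4a6. Type VI forms beaded filaments around cells, and the fibril-associated collagens (FACIT, such as types IX, XII, XIV and XVI) sit on the surface of fibrils. Types XV and XVIII (multiplexins) lie in basement membrane zones, and types XIII, XVII, XXIII and XXV span the cell membrane.

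Promoter sequences are shown for members that moved together (Col1a2 with Col3a1, and Col4a1 with Col4a2) and for the pair Col4a5 and Col4a6, of which only the first passed the test. They are RefSeq windows of the assembly GRCm38.p6, from 250 bases before to 50 bases after the annotated start of the gene, each written 5′ to 3′ on the gene's own strand. Capitals mark 3 motifs on either strand, the TATA box (TATAAA), the CCAAT box (CCAAT) and the GC box (GGGCGG). None of these motifs overlaps another in the windows shown.
Col1a2 (chr6:4505368-4505667, plus strand): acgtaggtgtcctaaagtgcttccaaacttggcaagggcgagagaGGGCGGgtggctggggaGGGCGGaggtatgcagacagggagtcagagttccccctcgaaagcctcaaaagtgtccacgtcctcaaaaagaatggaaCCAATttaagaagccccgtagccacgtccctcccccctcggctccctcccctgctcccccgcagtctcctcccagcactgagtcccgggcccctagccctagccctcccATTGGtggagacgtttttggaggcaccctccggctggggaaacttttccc
Col3a1 (chr1:45311288-45311587, plus strand): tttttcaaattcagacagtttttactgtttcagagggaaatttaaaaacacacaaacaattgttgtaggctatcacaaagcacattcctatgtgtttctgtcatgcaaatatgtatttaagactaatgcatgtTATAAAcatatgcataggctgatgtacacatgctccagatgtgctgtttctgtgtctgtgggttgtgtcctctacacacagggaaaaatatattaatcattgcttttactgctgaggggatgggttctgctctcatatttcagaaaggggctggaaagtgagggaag
Col4a1 (chr8:11312777-11313076, minus strand): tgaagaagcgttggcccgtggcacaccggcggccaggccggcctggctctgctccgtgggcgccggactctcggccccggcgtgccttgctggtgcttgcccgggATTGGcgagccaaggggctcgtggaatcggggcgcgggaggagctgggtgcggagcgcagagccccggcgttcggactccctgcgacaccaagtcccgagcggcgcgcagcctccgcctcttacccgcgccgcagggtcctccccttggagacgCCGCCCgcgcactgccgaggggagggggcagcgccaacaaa
Col4a2 (chr8:11312555-11312854, plus strand): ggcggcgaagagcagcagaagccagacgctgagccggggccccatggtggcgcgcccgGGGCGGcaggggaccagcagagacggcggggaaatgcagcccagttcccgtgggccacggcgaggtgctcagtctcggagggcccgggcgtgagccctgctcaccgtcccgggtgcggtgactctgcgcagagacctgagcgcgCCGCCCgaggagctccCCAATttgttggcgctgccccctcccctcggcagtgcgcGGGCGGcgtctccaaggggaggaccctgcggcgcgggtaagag
Col4a5 (chrX:141475169-141475468, plus strand): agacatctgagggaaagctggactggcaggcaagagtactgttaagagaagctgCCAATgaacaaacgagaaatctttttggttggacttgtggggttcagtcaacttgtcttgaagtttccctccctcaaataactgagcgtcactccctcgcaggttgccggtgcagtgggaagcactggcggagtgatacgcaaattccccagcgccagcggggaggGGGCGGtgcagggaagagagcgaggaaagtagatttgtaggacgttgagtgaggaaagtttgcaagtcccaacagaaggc
Col4a6 (chrX:141474027-141474326, minus strand): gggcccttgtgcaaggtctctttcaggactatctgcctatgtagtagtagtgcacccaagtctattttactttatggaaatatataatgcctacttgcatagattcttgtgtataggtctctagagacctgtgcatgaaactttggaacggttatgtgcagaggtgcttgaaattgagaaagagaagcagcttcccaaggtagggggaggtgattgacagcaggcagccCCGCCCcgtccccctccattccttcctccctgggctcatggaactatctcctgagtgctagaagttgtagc
The annotated starts of Col4a1 and Col4a2 lie 21 bases apart, and their windows share 78 bases, including 1 GC box that is marked in both. Those of Col4a5 and Col4a6 lie 1343 bases apart. In the table, 35 of the 44 members had windows, 38 in all, and Col1a1, Col2a1, Col4a3, Col5a2, Col9a3, Col12a1, Col14a1, Col22a1 and Col26a1 had none. A GC box was found in 60.5% of the 38 collagen windows and in 35.7% of all 32851 windows of the table. A CCAAT box was found in 34.2% of the collagen windows and 37.4% of all, and a TATA box in 13.2% and 13.6%. These matches describe the letters only.

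A large share of the collagen genes passed the test as higher in LiPS-50 relative to each other line, and none passed as lower. Against LiPS-47, 19 of 44 members passed as higher (43.2%, against 8.48% of all tested probe sets). Against LiPS-57 the count was also 19 (43.2%, against 8.16%), and against LiPS-45 it was 20 (45.5%, against 8.18%). Differences were above 0 for 36, 41 and 42 of the 44 members, over LiPS-47, LiPS-57 and LiPS-45, called or not. The members called lower were 0 in each case, where 7.31%, 7.48% and 8.3% of all probe sets were called lower. The 3 comparisons share the LiPS-50 arrays, so they are not independent. All 3 LiPS-50 arrays lay above all 3 arrays of the other line for 21 members against LiPS-47 (14.2% of all probe sets did so), 26 against LiPS-57 (15.3%) and 24 against LiPS-45 (15.3%). A test for any difference among the 4 lines called 20 members (7 fibrillar, 3 of type IV and 10 others), where it called 14.9% of all probe sets. In such bulk RNA, more cells of a type and more RNA per cell cannot be told apart.

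**Figure D1:**
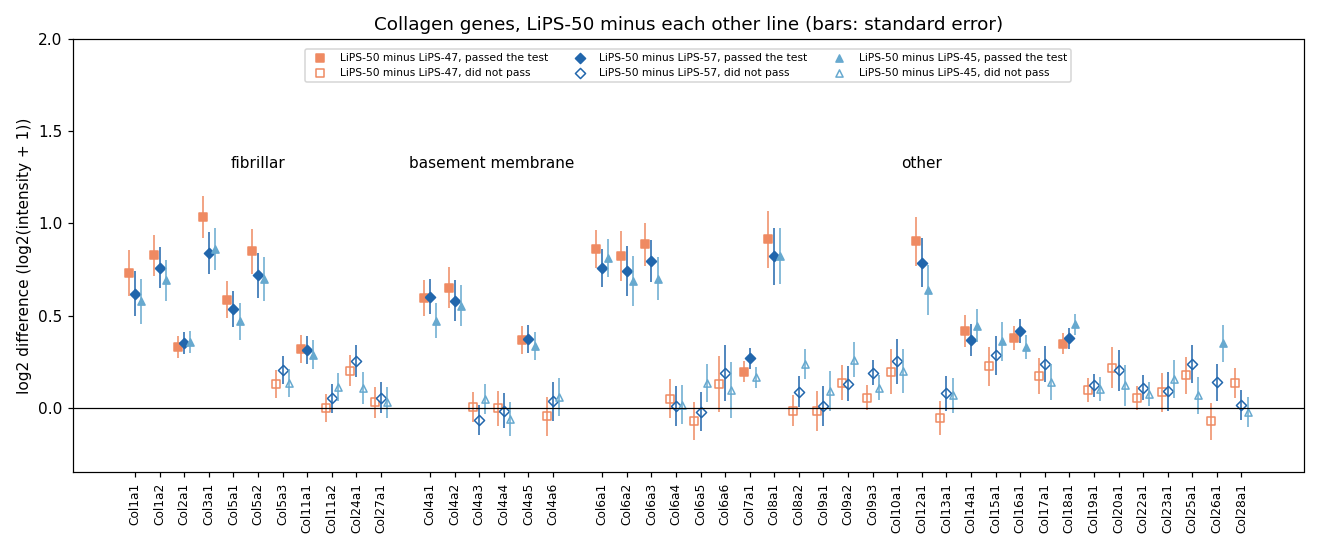
Difference between LiPS-50 and each other line on the log2(intensity + 1) scale for the 44 collagen genes, grouped by class; bars are standard errors from the fit and filled symbols passed the test at an adjusted p of 0.05. Filled symbols lie above 0 in every case, and the highest is that of Col3a1 over LiPS-47, at 1.04.

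The median difference of the 11 fibrillar members was 0.33 over LiPS-47, 0.35 over LiPS-57 and 0.36 over LiPS-45. For the 6 type IV members it was 0.19, 0.21 and 0.20, and for the 27 others 0.17, 0.20 and 0.17. The median of all tested probe sets was -0.014, -0.00019 and 0.00024. Without LiPS-50 replicate 2 the median of the others over LiPS-47 was 0.10. Of the fibrillar members 7 of 11 passed in each comparison, and of type IV 3 of 6. Of the others 9, 9 and 10 of 27 passed, over LiPS-47, LiPS-57 and LiPS-45. The difference between classes was not tested, because members of a class are not replicates. Members with a mean above the median of all tested probe sets numbered 31, of which 21 passed in some pair, while none of the 13 below it passed.

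The genes for the chains of type I, the main collagen of fibroblasts, were higher in LiPS-50. Col1a1, which encodes the α1 chain, was measured at 11.85, 11.54 and 11.67 in the LiPS-50 cultures, against 11.03, 11.14 and 10.70 in LiPS-47, 11.06, 11.08 and 11.07 in LiPS-57 and 11.06, 11.34 and 10.94 in LiPS-45. Every LiPS-50 culture lay above the 9 others, and LiPS-47 replicate 3 was the lowest of all. The fold was 1.66 over LiPS-47 (adjusted p = 0.00153), 1.54 over LiPS-57 (0.00493) and 1.49 over LiPS-45 (0.00696). Col1a2, which encodes the partner chain α2, was measured at 11.50, 11.29 and 11.42 in LiPS-50, against 10.64, 10.75 and 10.33 in LiPS-47, 10.64, 10.65 and 10.64 in LiPS-57 and 10.65, 10.91 and 10.57 in LiPS-45. As for Col1a1, LiPS-47 replicate 3 was the lowest culture, with no overlap between LiPS-50 and the rest. Its differences of 0.83, 0.76 and 0.69 over LiPS-47, LiPS-57 and LiPS-45 (SE 0.111 each) had adjusted p-values of 0.000348, 0.000723 and 0.00126.

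The difference between the probe sets of both type I genes was compared within arrays. Col1a1 minus Col1a2 averaged 0.29 ± 0.0528 in LiPS-50, 0.38 ± 0.0124 in LiPS-47, 0.43 ± 0.00765 in LiPS-57 and 0.40 ± 0.0323 in LiPS-45 (SD, n = 3 each). In each of the 3 comparisons an exact permutation test (two-sided, 3 against 3 arrays) gave p = 0.1, the smallest p the design allows, and 0.225 after adjustment over 9 such tests. A threshold of 0.05 was thus out of reach, and the 3 comparisons share the LiPS-50 arrays, so no change of balance is read from them.

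Col3a1, the chain of type III collagen, which accompanies type I in elastic tissues, had the largest difference of any member over LiPS-47. It was measured at 9.92, 9.68 and 9.89 in LiPS-50, against 8.87, 8.95 and 8.56 in LiPS-47, 8.92, 9.08 and 8.96 in LiPS-57 and 8.87, 9.16 and 8.88 in LiPS-45. LiPS-50 stood clear of the rest, by a fold of 2.05 over LiPS-47 (adjusted p = 8.58e-05), 1.79 over LiPS-57 (0.000424) and 1.81 over LiPS-45 (0.000326). Its neighbour on chromosome 1 in RefSeq order, Col5a2, encodes a chain of type V, the collagen that helps start type I fibrils. Col5a2 stood at 9.12, 8.94 and 9.13 in LiPS-50, against 8.32, 8.40 and 7.93 in LiPS-47, 8.27, 8.44 and 8.33 in LiPS-57 and 8.23, 8.56 and 8.31 in LiPS-45. Its fold was 1.80, 1.65 and 1.62 over LiPS-47, LiPS-57 and LiPS-45 (adjusted p = 0.000531, 0.00184 and 0.00208).

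The further type V chains differed in outcome. Col5a1 was measured at 8.96, 8.62 and 8.77 in LiPS-50, against 8.29, 8.28 and 8.02 in LiPS-47, 8.23, 8.28 and 8.24 in LiPS-57 and 8.28, 8.44 and 8.22 in LiPS-45, with no overlap. Its folds were 1.50, 1.45 and 1.38 (adjusted p = 0.00153, 0.00315 and 0.00657 over LiPS-47, LiPS-57 and LiPS-45). Col5a3 did not pass in any pair, and its differences were 0.13, 0.20 and 0.14 in the same order.

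Col2a1 and Col11a1, chains best known from cartilage, rose by less. Col2a1 was measured at 7.48, 7.53 and 7.52 in LiPS-50, against 7.15, 7.25 and 7.15 in LiPS-47, 7.15, 7.16 and 7.17 in LiPS-57 and 7.14, 7.25 and 7.07 in LiPS-45. The LiPS-50 cultures were the highest 3 of the 12, and the folds were 1.26, 1.28 and 1.28 (adjusted p = 0.00255, 0.00203 and 0.0017). Col11a1 was measured at 6.73, 6.64 and 6.79 in LiPS-50, against 6.46, 6.46 and 6.27 in LiPS-47, 6.46, 6.36 and 6.40 in LiPS-57 and 6.43, 6.54 and 6.32 in LiPS-45. Its differences of 0.32, 0.31 and 0.29 passed (adjusted p = 0.0132, 0.015 and 0.0221), but without LiPS-50 replicate 3 it passed in none of the 3 comparisons. Its call over LiPS-45 was also lost with arrays centred on their medians and with both lines fitted alone. Calls were further lost without LiPS-47 replicate 3 (over LiPS-47), without LiPS-57 replicate 2 (over LiPS-57) and without LiPS-50 replicate 1 or LiPS-45 replicates 1 or 3 (over LiPS-45), with adjusted p up to 0.0959. The remaining fibrillar genes, Col11a2, Col24a1 and Col27a1, did not pass, with differences between -0.00034 and 0.25.

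**Figure D2:**
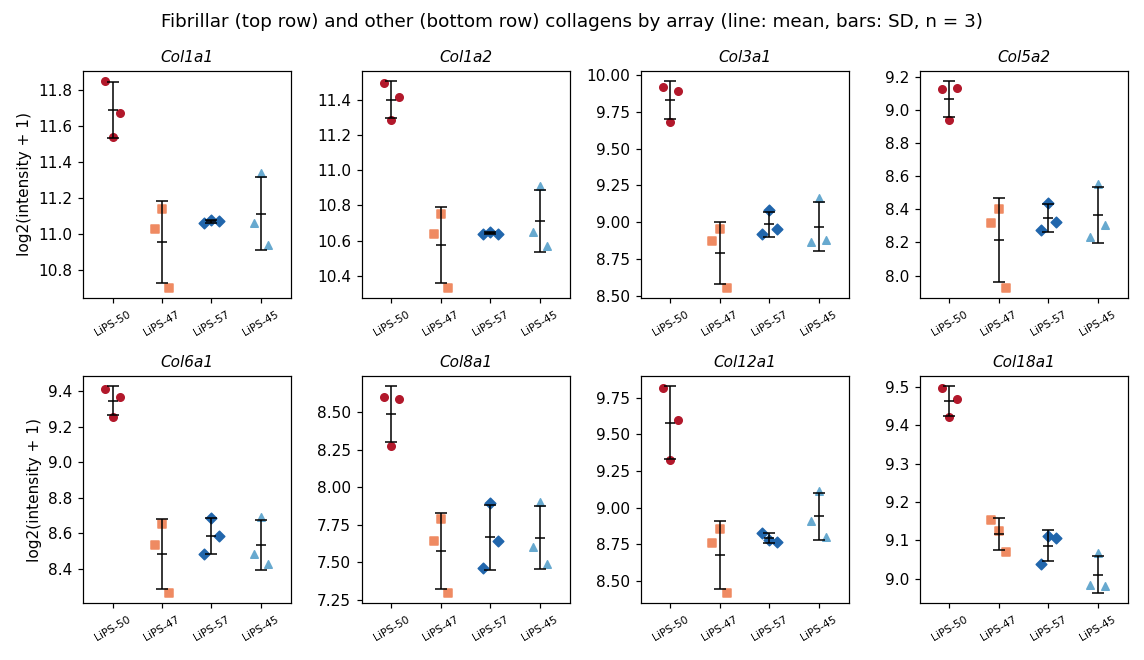
Level on the log2(intensity + 1) scale in each of the 12 arrays for 4 fibrillar and 4 other collagen genes; points are cultures, the line is the mean and bars are SDs over 3 cultures. In all 8 panels the 3 LiPS-50 points lie above the 9 others, and in 7 of them, not Col18a1, LiPS-47 replicate 3 is the lowest point of its line by a clear step.

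Among type IV chains, the pair Col4a1 and Col4a2, which form the network of nearly all basement membranes, rose together in LiPS-50. Col4a1 was measured at 8.82, 8.55 and 8.79 in LiPS-50, against 8.27, 8.15 and 7.95 in LiPS-47, 8.10, 8.16 and 8.09 in LiPS-57 and 8.28, 8.34 and 8.12 in LiPS-45. Col4a2 was measured at 8.88, 8.49 and 8.73 in LiPS-50, against 8.10, 8.18 and 7.87 in LiPS-47, 8.11, 8.19 and 8.06 in LiPS-57 and 8.06, 8.31 and 8.07 in LiPS-45. Neither gene overlapped between LiPS-50 and any other line. The folds for Col4a1 were 1.51, 1.52 and 1.39 over LiPS-47, LiPS-57 and LiPS-45 (adjusted p = 0.00113, 0.00126 and 0.00516). For Col4a2 they were 1.57, 1.50 and 1.47 (0.00164, 0.00387 and 0.00474). The within-array difference of Col4a1 minus Col4a2 was 0.015 in LiPS-50, 0.071 in LiPS-47, -0.0068 in LiPS-57 and 0.098 in LiPS-45, with exact permutation p = 0.4, 0.8 and 0.6 against these 3 lines (3 arrays each, smallest possible p 0.1). That test could not have passed at 0.05, so these p-values do not show that the pair kept its balance.

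The pair Col4a3 and Col4a4, which serve the kidney filter, did not pass in any comparison. Both were dim, with means at percentiles 45.1 and 42.7 of the tested probe sets. Col4a3 was measured at 5.59, 5.59 and 5.42 in LiPS-50, against 5.39, 5.60 and 5.60 in LiPS-47, 5.70, 5.52 and 5.59 in LiPS-57 and 5.55, 5.52 and 5.38 in LiPS-45. Col4a4 was measured at 5.32, 5.44 and 5.33 in LiPS-50, against 5.39, 5.32 and 5.39 in LiPS-47, 5.29, 5.47 and 5.37 in LiPS-57 and 5.63, 5.21 and 5.43 in LiPS-45. The lines overlapped throughout, and no difference of either gene from LiPS-50 exceeded 0.07 in size, with SEs of 0.0824 and 0.0933.

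Of the X-linked pair, only Col4a5 passed. Col4a6 was dim, with a mean at percentile 41.6 of the tested probe sets, while Col4a5 stood at percentile 54.7. Col4a5, mutated in Alport syndrome, was measured at 6.46, 6.38 and 6.58 in LiPS-50, against 6.14, 6.18 and 5.98 in LiPS-47, 6.05, 6.13 and 6.11 in LiPS-57 and 6.03, 6.15 and 6.23 in LiPS-45. It was higher in LiPS-50 by 0.37, 0.37 and 0.34 (SE 0.0768 each, adjusted p = 0.00571, 0.00592 and 0.0103), with no overlap. Col4a6 was measured at 5.56, 5.24 and 5.16 in LiPS-50, against 5.36, 5.31 and 5.43 in LiPS-47, 5.26, 5.13 and 5.46 in LiPS-57 and 5.30, 5.20 and 5.28 in LiPS-45, and its groups overlapped. Its differences of -0.046, 0.037 and 0.059 had adjusted p-values of 0.844, 0.886 and 0.777. The change in Col4a5 minus Col4a6 was 0.41 over LiPS-47, 0.34 over LiPS-57 and 0.28 over LiPS-45, with exact permutation p = 0.1, 0.2 and 0.3 (3 arrays each). This test cannot go below 0.1, so it could not have passed a threshold of 0.05. As a background for X-linked genes, the median difference of all 739 of them was 0.14, 0.15 and 0.16 over the same lines, and 36.9%, 38% and 35.7% were called higher in LiPS-50. The part of the X chromosome in the Col4a5 result was not tested.

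**Figure D3:**
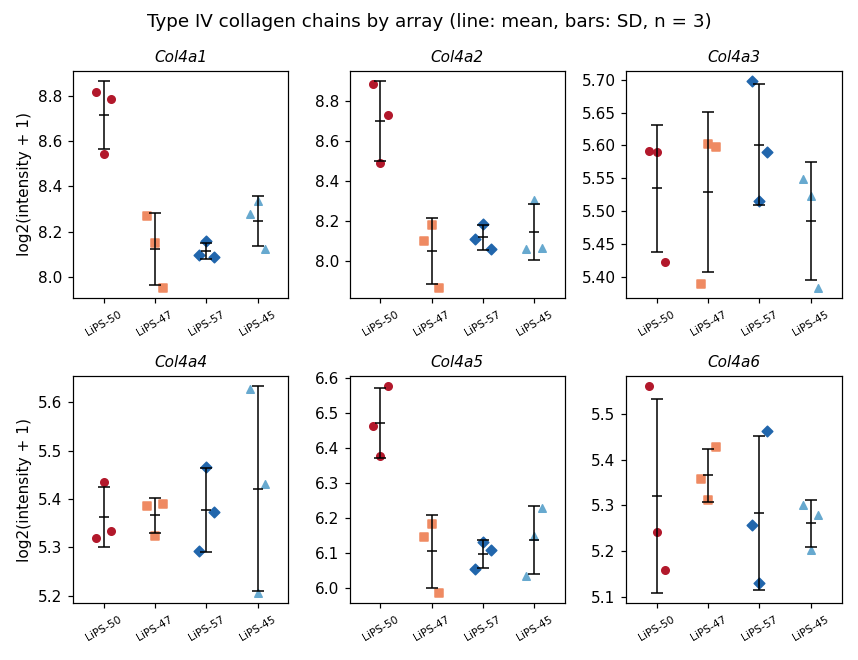
Level of the 6 type IV collagen genes on the log2(intensity + 1) scale in each array; points are cultures, the line is the mean and bars are SDs over 3 cultures. LiPS-50 lies above all other points for Col4a1, Col4a2 and Col4a5, and the lines overlap for Col4a3, Col4a4 and Col4a6.

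Of the genes for type VI chains, those for the common chains were higher in LiPS-50 and those for the rare chains did not pass. Col6a1 was measured at 9.41, 9.25 and 9.37 in LiPS-50, against 8.53, 8.65 and 8.26 in LiPS-47, 8.49, 8.69 and 8.58 in LiPS-57 and 8.48, 8.69 and 8.43 in LiPS-45. Its neighbour on chromosome 10, Col6a2, stood at 8.73, 8.26 and 8.57 in LiPS-50, against 7.71, 7.85 and 7.52 in LiPS-47, 7.60, 7.93 and 7.80 in LiPS-57 and 7.81, 8.02 and 7.66 in LiPS-45. Col6a3, the large chain of the trimer, was measured at 9.60, 9.27 and 9.39 in LiPS-50, against 8.57, 8.69 and 8.33 in LiPS-47, 8.62, 8.63 and 8.62 in LiPS-57 and 8.67, 8.92 and 8.56 in LiPS-45. No LiPS-50 culture overlapped with another line for these 3 genes. The folds over LiPS-47 were 1.82, 1.77 and 1.85 for Col6a1, Col6a2 and Col6a3 (adjusted p = 0.000165, 0.00124 and 0.000273), with folds of 1.61 to 1.75 over LiPS-57 and LiPS-45 (0.000254 to 0.00419). Col6a4, Col6a5 and Col6a6, alternative chains whose genes lie side by side on chromosome 9, did not pass in any pair, with differences from -0.073 to 0.19.

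Col8a1, a chain of the short network-forming type VIII collagen made by vessel wall and mesenchymal cells, was among the members with the largest change. It was measured at 8.60, 8.28 and 8.59 in LiPS-50, against 7.64, 7.79 and 7.29 in LiPS-47, 7.46, 7.89 and 7.64 in LiPS-57 and 7.60, 7.90 and 7.49 in LiPS-45. LiPS-50 was higher without overlap, by a fold of 1.88 over LiPS-47 (adjusted p = 0.00146) and of 1.77 over both LiPS-57 (0.00332) and LiPS-45 (0.00313). Col8a2 and Col10a1, the other network-forming chains, did not pass.

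Among the 9 fibril-associated genes, Col12a1, Col14a1 and Col16a1 rose. Col12a1, whose product lies on type I fibrils in dense tissue, was measured at 9.82, 9.32 and 9.60 in LiPS-50, against 8.76, 8.85 and 8.42 in LiPS-47, 8.83, 8.78 and 8.77 in LiPS-57 and 8.91, 9.11 and 8.80 in LiPS-45. Its folds were 1.87, 1.73 and 1.56 (adjusted p = 0.000662, 0.00187 and 0.00616), and no culture of LiPS-50 overlapped with the rest. Col14a1, which encodes another fibril-associated chain, stood at 6.70, 6.41 and 6.70 in LiPS-50, against 6.14, 6.20 and 6.21 in LiPS-47, 6.18, 6.17 and 6.35 in LiPS-57 and 6.21, 6.04 and 6.21 in LiPS-45. It was 0.42, 0.37 and 0.45 higher (adjusted p = 0.00614, 0.0134 and 0.00442), and the second of these calls was lost without any 1 of LiPS-50 replicates 1 and 3 and LiPS-57 replicates 1 and 2 (adjusted p up to 0.0577). Col16a1 was measured at 7.19, 7.29 and 7.20 in LiPS-50, against 6.87, 6.89 and 6.79 in LiPS-47, 6.73, 6.84 and 6.86 in LiPS-57 and 6.90, 6.98 and 6.82 in LiPS-45. Its differences were 0.38, 0.42 and 0.33 (adjusted p = 0.00171, 0.00116 and 0.00439). The chains of type IX and Col19a1, Col20a1 and Col22a1 did not pass.

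Col18a1, the multiplexin from which endostatin is cut, had narrow spreads. It was measured at 9.50, 9.42 and 9.47 in LiPS-50, against 9.15, 9.12 and 9.07 in LiPS-47, 9.04, 9.11 and 9.11 in LiPS-57 and 8.99, 9.07 and 8.98 in LiPS-45. The SDs were 0.0391, 0.0413, 0.0406 and 0.0486 in LiPS-50, LiPS-47, LiPS-57 and LiPS-45, and the differences of 0.35, 0.38 and 0.45 from LiPS-50 passed (adjusted p = 0.00111, 0.000789 and 0.000193). Col15a1, the other multiplexin, stood at 6.38, 6.53 and 6.12 in LiPS-50, against 6.17, 5.99 and 6.19 in LiPS-47, 6.09, 6.02 and 6.06 in LiPS-57 and 6.16, 5.89 and 5.90 in LiPS-45. It passed over LiPS-45 only (0.36, adjusted p = 0.0351), where LiPS-50 replicate 3 lay below LiPS-45 replicate 1, and the call was lost in 8 of 21 alternatives (adjusted p up to 0.134). The differences between its comparisons were not tested.

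The remaining calls were Col7a1 and Col26a1. Col7a1 encodes the anchoring fibril of the skin. It was measured at 7.32, 7.41 and 7.32 in LiPS-50, against 7.14, 7.16 and 7.16 in LiPS-47, 7.09, 7.03 and 7.13 in LiPS-57 and 7.18, 7.24 and 7.14 in LiPS-45, so LiPS-50 was highest throughout. The gap was small, at 0.20 over LiPS-47 (adjusted p = 0.0329), 0.27 over LiPS-57 (0.00689) and 0.17 over LiPS-45 (0.0651, not passed). The first of these calls was lost in 10 of 21 alternatives (adjusted p up to 0.113). Col26a1 was measured at 6.55, 6.83 and 6.40 in LiPS-50, against 6.63, 6.71 and 6.66 in LiPS-47, 6.41, 6.36 and 6.60 in LiPS-57 and 6.27, 6.17 and 6.29 in LiPS-45. In this gene LiPS-45 was the low line, and LiPS-50 and LiPS-47 overlapped. The difference of 0.35 between LiPS-50 and LiPS-45 (adjusted p = 0.0321) was lost in 9 of 21 alternatives (adjusted p up to 0.107). The 4 transmembrane collagens and Col28a1 had 0 calls.

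Markers of other cell types moved beside the collagens. Of 26 fibroblast and feeder cell markers, a list with no collagen in it, 21 were higher and 2 lower in LiPS-50 relative to LiPS-47. The counts were 20 and 1 over LiPS-57, and 21 and 1 over LiPS-45, where 8.48%, 8.16% and 8.18% of all probe sets were higher. The median difference was 0.66, 0.55 and 0.44. Thy1 (CD90), a surface protein of fibroblasts, was 1.96-fold higher over LiPS-47 and Pdgfra, a receptor of mesenchymal cells, 2.38-fold (adjusted p = 0.00101 and 2.91e-05). Nt5e (CD73) went the other way and was lower in LiPS-50 by 1.39, 0.92 and 1.24, and Cnn1 was lower than in LiPS-47 by 0.27 (adjusted p = 0.0463). The summed intensity of the list was 29061 to 32327 in LiPS-50, against 19041 to 23546 in LiPS-47, 21592 to 23423 in LiPS-57 and 22086 to 25345 in LiPS-45. That of the 44 collagens was 13684 to 15890 in LiPS-50, against 8463 to 10251, 9562 to 9971 and 9290 to 11104 in the same order. Fap, Meox1 and Tcf21 had means below the 40th percentile of probe sets, and no marker could be called absent. The part of fibroblasts or feeder cells in the collagen result was not tested.

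The order of cultures within a line was set beside that of these markers. For the 21 collagens that passed in some pair, LiPS-50 replicate 2 was the lowest culture of LiPS-50 in 16. LiPS-47 replicate 3 was the lowest of its line in 16, and LiPS-45 replicate 2 was the highest of its line in 17. In the summed marker intensity the same cultures were lowest (LiPS-50 replicate 2, 29061), lowest (LiPS-47 replicate 3, 19041) and highest (LiPS-45 replicate 2, 25345) in their lines. The highest LiPS-50 culture differed. It was replicate 1 in 13 of the 21 collagens and in the collagen sum (15890), but replicate 3 in the marker sum (32327). Of the 23 collagens that passed in no pair, LiPS-50 replicate 2 was instead the highest of its line in 16. LiPS-47 replicate 3 was the highest of its line in 15 of them, and LiPS-45 replicate 2 in 6. The order over all probe sets was not counted, and the match with the markers was not tested. Without LiPS-47 replicate 3, 18 collagens passed as higher in LiPS-50 relative to LiPS-47, and without LiPS-45 replicate 2, 18 passed relative to LiPS-45.

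**Figure D4:**
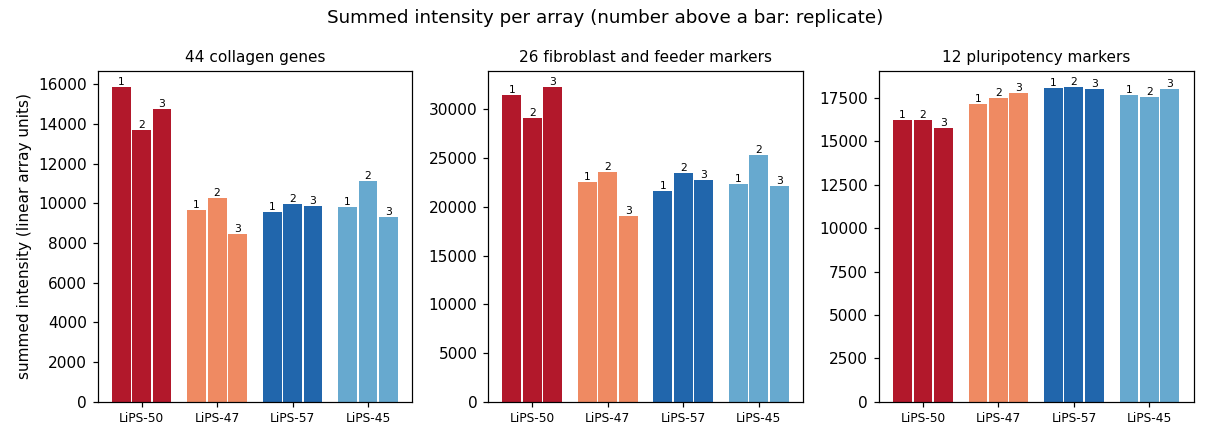
Summed linear intensity of 44 collagen genes, 26 fibroblast and feeder markers and 12 pluripotency markers in each array; each bar is 1 culture, with its replicate number above it. LiPS-50 has the highest bars in the left and middle panels (13684 to 15890 for the collagens) and the lowest in the right one (15751 to 16247).

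Parietal endoderm, an early cell type that deposits a thick type IV basement membrane, was represented by 16 markers of primitive and parietal endoderm. Of these, 2, 3 and 3 were higher and 1 lower in LiPS-50, relative to LiPS-47, LiPS-57 and LiPS-45, where 8.48%, 8.16% and 8.18% of all probe sets were higher and 7.31%, 7.48% and 8.3% lower. Thbd and Dab2 were the genes higher in every comparison, by folds of 2.06 and 1.70 over LiPS-47, and Foxa2 was the lower one, by 1.05. Of the transcription factors of this lineage, Gata4, Gata6 and Sox17 did not pass. Sox7, another of them, was measured at 5.58, 5.70 and 5.61 in LiPS-50, against 5.45, 5.26 and 5.18 in LiPS-45. It passed as higher over LiPS-45 but not over LiPS-47 (adjusted p = 0.0962). Sox17, Cubn, Afp and Ttr had means below the 40th percentile. The summed intensity was 2352 to 2631 in LiPS-50, against 2062 to 2219, 2083 to 2100 and 2128 to 2314 in LiPS-47, LiPS-57 and LiPS-45. Lamb1, which also stands in the list of basement membrane components, gave the largest part of this sum. Its own fold over LiPS-47 was only 1.095 (adjusted p = 0.271, not passed), below those of Thbd and Dab2. The list medians overlapped, at 5.68 to 5.95 in LiPS-50, against 5.91 to 6.00, 5.92 to 5.97 and 5.75 to 5.94. Of 12 trophectoderm markers 4, 3 and 4 were higher and 4, 1 and 2 lower, against the same shares of all probe sets. Over LiPS-47, Gata3, Gata2, Krt7 and Tfap2c were higher, and Eomes, Krt8, Krt18 and Krt19 lower. The sums were 3164 to 3404 in LiPS-50, against 4375 to 5057, 2820 to 3501 and 3668 to 3782. The list medians were instead highest in LiPS-50, at 6.78 to 6.92, against 6.61 to 6.66, 6.44 to 6.59 and 6.39 to 6.49. Of 6 endothelial markers 2 were higher in each comparison, against those shares, Pecam1 and Eng, of which Eng also stands in the fibroblast list. Their sums were 617 to 649 in LiPS-50, against 444 to 500, 476 to 484 and 439 to 462, and Cdh5, Kdr and Emcn had means below the 40th percentile. The part of these cell types was not tested.

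Between LiPS-47, LiPS-57 and LiPS-45 no collagen passed the test. In limma's test 0 of 44 members passed in LiPS-47 against LiPS-57, LiPS-47 against LiPS-45 or LiPS-57 against LiPS-45, where 0.159%, 0.0622% and 0.266% of all probe sets did. At an unadjusted p under 0.05 the counts were 0, 2 and 0, where 6.89%, 8.93% and 8.01% of all probe sets had such a p. The 2 were Col26a1, with a difference of 0.42 (SE 0.1, adjusted p = 0.207), and Col8a2, with 0.25 (SE 0.0833, adjusted p = 0.368). Both were higher in all 3 LiPS-47 cultures than in all 3 of LiPS-45. For Col1a1 the lines averaged 10.96 ± 0.226, 11.07 ± 0.0125 and 11.11 ± 0.204 in LiPS-47, LiPS-57 and LiPS-45 (SD, n = 3 each). The ranges of the first and the last enclosed that of LiPS-57. The same held for Col1a2, at 10.57 ± 0.217, 10.64 ± 0.00582 and 10.71 ± 0.179 (SD, n = 3 each).

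No collagen passed between the classes of competence either. With the line as a random block, limma called 0 of 44 members between the lines without and with competence, as it did 0 of all probe sets (0%). At an unadjusted p under 0.05 there were 4 members, Col26a1, Col18a1, Col2a1 and Col8a2, all higher without competence, where 7.69% of all probe sets had such a p. The lowest adjusted p was 0.648. Differences were above 0 for 40 of 44 members, with a median of 0.13, and LiPS-50 is 1 of the lines that enter them. Col3a1 illustrates the order, with 9.83 ± 0.129 in LiPS-50 and 8.79 ± 0.21 in LiPS-47 without competence, and 8.99 ± 0.0847 in LiPS-57 and 8.97 ± 0.167 in LiPS-45 with it (SD, n = 3 each). The line means of this gene thus put LiPS-47 lowest and LiPS-50 highest, on both sides of the competent lines. Taking only the spread between cultures as error, the same contrast called 8 members, all higher without competence, where it called 2.95% of all probe sets higher. That error treats cultures as replicates of a class that holds 2 lines.

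Genes for proteins that fold and process collagen were higher in LiPS-50 in part. Of 25 listed genes 23 were measured, and 12, 13 and 12 were higher in LiPS-50, relative to LiPS-47, LiPS-57 and LiPS-45, with 0 lower and medians of 0.29, 0.33 and 0.31. The shares of all probe sets called higher were 8.48%, 8.16% and 8.18%. Crtap, a partner of prolyl 3-hydroxylase, was measured at 9.37, 9.21 and 9.30 in LiPS-50, against 8.72, 8.71 and 8.54 in LiPS-47, 8.74, 8.78 and 8.72 in LiPS-57 and 8.64, 8.66 and 8.60 in LiPS-45. All LiPS-50 cultures were the highest, and the fold of 1.56 over LiPS-47 had an adjusted p of 5.58e-05. Serpinh1 (Hsp47), the chaperone of procollagen, was 1.33-, 1.34- and 1.32-fold higher (adjusted p = 0.0022, 0.00235 and 0.00328). P4ha3, a catalytic subunit of prolyl 4-hydroxylase, was 1.80-fold higher over LiPS-47, and Pcolce, which aids the removal of the procollagen end, 1.60-fold (0.000667 and 0.00144). P4hb and Ppib, which fold many other proteins too, did not pass over LiPS-47, at 0.092 and 0.082.

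Genes for proteins that coat or link fibrils were higher in LiPS-50 almost throughout. Of 12 measured genes 11, 12 and 11 were higher in LiPS-50, with medians of 0.85, 0.69 and 0.69 over LiPS-47, LiPS-57 and LiPS-45, where 8.48%, 8.16% and 8.18% of all probe sets were higher. Dcn (decorin), a proteoglycan that binds type I fibrils, was measured at 8.79, 8.51 and 8.76 in LiPS-50, against 7.74, 7.55 and 7.26 in LiPS-47, 7.61, 7.96 and 7.92 in LiPS-57 and 7.57, 8.03 and 7.62 in LiPS-45. It was 2.25-, 1.81- and 1.93-fold higher (adjusted p = 0.000265, 0.00234 and 0.00116). Fmod (fibromodulin) was the gene that did not pass over LiPS-47 and LiPS-45 (adjusted p = 0.094 and 0.0624).

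Collagen receptor genes were split. Of 9 measured genes 3, 4 and 4 were higher and 0 lower, where 8.48%, 8.16% and 8.18% of all probe sets were higher and 7.31%, 7.48% and 8.3% lower. Ddr2, a receptor kinase for fibrillar collagen found on mesenchymal cells, was measured at 8.96, 8.57 and 8.75 in LiPS-50, against 7.83, 7.97 and 7.52 in LiPS-47, 7.95, 8.04 and 8.02 in LiPS-57 and 8.05, 8.21 and 7.94 in LiPS-45. Its folds were 1.99, 1.69 and 1.62 (adjusted p = 0.000197, 0.00138 and 0.00221). Ddr1, the related kinase of epithelial cells, stood at 8.56, 8.59 and 8.51 in LiPS-50, against 8.66, 8.76 and 8.69 in LiPS-47, and its difference of -0.15 did not pass (adjusted p = 0.175). Mrc2, which takes up collagen for breakdown, was 1.48-fold higher over LiPS-47 (adjusted p = 0.00352) and Itgb1, the common integrin β chain, 1.23-fold (adjusted p = 0.0167).

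Genes for the other components of basement membranes did not move as a block. Of 14 measured genes 5, 6 and 5 were higher in LiPS-50 and 0, 0 and 1 lower, with medians of 0.065, 0.11 and 0.11. Of all probe sets, 8.48%, 8.16% and 8.18% were higher and 7.31%, 7.48% and 8.3% lower. The laminin chains Lama4 and Lama2, typical of mesenchymal and muscle tissue, were 1.93- and 1.52-fold higher over LiPS-47 (adjusted p = 0.000993 and 0.00383), and the linker Nid1 (nidogen 1) 1.82-fold (0.000667). Lamb2 and Hspg2 were also higher over LiPS-47, 1.41- and 1.35-fold (adjusted p = 0.002065 and 0.00752). Lama4 was measured at 7.98, 7.56 and 7.88 in LiPS-50, against 7.05, 7.01 and 6.50 in LiPS-47, 6.83 to 7.07 in LiPS-57 and 7.03, 7.19 and 6.85 in LiPS-45. Lama1, the laminin chain of the early embryo, stood at 6.44, 6.15 and 6.33 in LiPS-50, against 6.57, 6.50 and 6.58 in LiPS-47, 6.57, 6.36 and 6.41 in LiPS-57 and 6.57, 6.69 and 6.62 in LiPS-45. It was lower in LiPS-50 than in LiPS-45 by 0.32 (adjusted p = 0.0173), and did not pass over the other two lines. Lama5 and Lamc1, laminin chains of epithelia and stem cells, and Nid2 did not pass in any of the 3 comparisons. For Lama5 the levels were 9.68, 9.48 and 9.50 in LiPS-50, against 9.72, 9.68 and 9.76 in LiPS-47, and the difference was -0.17 (adjusted p = 0.123).

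**Figure D5:**
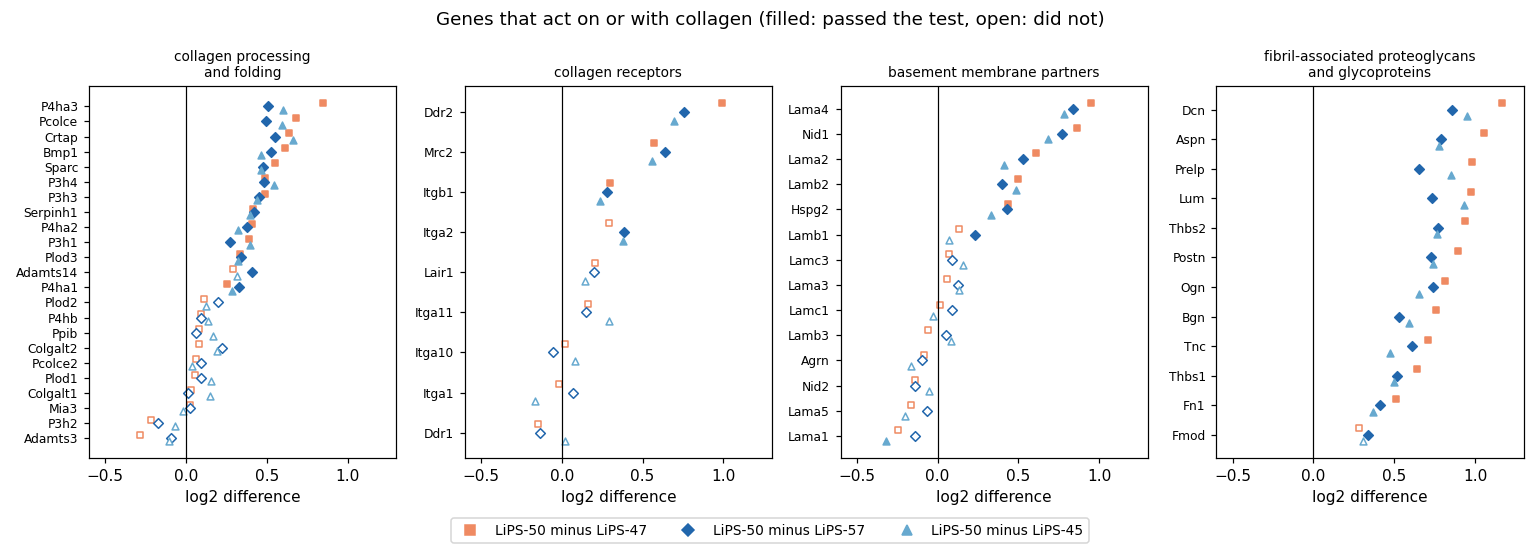
Difference between LiPS-50 and each other line on the log2(intensity + 1) scale for genes that process, bind, accompany or coat collagen; filled symbols passed the test at an adjusted p of 0.05 and open ones did not. Genes are sorted by their difference from LiPS-47 within each panel. The proteoglycan and glycoprotein panel lies wholly right of 0, while the basement membrane panel spreads on both sides, with Lama4 at 0.95 and Lama1 at -0.24 over LiPS-47.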

How the data were processed

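The deposited table holds 1 probe set intensity per array on a linear scale for 35556 probe sets. The authors' software was GCOS 1.4, per the submitters' processing notes. How they summarised probes, corrected background and normalized arrays is not given in the sources used here. Quartiles of log2 values differed by at most 0.0954 between arrays, so values were used as deposited, as log2(value + 1). A block of 6617 probe sets with numbers below the lowest annotated one was taken to hold controls, from the numbering alone, and left out. The other 28939 were tested with limma 3.58.1 in R 4.3.3 (lmFit, eBayes, two-sided, 4 line means over 12 arrays, 8 residual degrees of freedom). Competence had the line as a random block (duplicateCorrelation, 0.183). Of the 28939, 21789 list 1 gene, 1621 several and 5529 none, and symbols were updated by gene identifier from RefSeq GRCm38.p6 (19856 of 19938 matched). The largest share of equal values between 2 arrays was 0.746%. Every collagen could be named, and values per array were required for each called member and the type IV chains. The members and lists were chosen with earlier results of these data known. The replicate number is not stated to mark a shared day, so the replicate block stayed an alternative. Deviations of same-numbered cultures were only weakly correlated over all probe sets. Other alternatives were quantile normalization, median centring, a pseudocount of 16, removal of probe sets below the 40th percentile, the control block included, a prior with an intensity trend, the mean of a gene's probe sets, 2 lines alone and each culture left out. The fit was tested on simulated data.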

Additional observations from a re-analysis of the deposited data

How the results depend on the processing

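No call on a collagen changed direction under any of the alternatives run. Of 58 calls on single collagens in the comparisons with LiPS-50, 51 held in all their alternatives. The exceptions were Col11a1 in each comparison, Col7a1 over LiPS-47, Col14a1 over LiPS-57, and Col15a1 and Col26a1 over LiPS-45. The counts of 19, 19 and 20 over LiPS-47, LiPS-57 and LiPS-45 became 18, 19 and 19 with the replicate block. Correlations between deviations of same-numbered cultures over all probe sets ran from -0.169 to 0.121, with 4 of 18 above 0.1. These weak correlations cannot show whether the numbers mark a shared day. Of the 21 collagens called in some pair, replicate 2 was the highest culture in 15, 13 and 17 in LiPS-47, LiPS-57 and LiPS-45. In LiPS-50 it was the lowest in 16. The order over all probe sets was not counted. With 1 culture left out the counts of passing members over LiPS-47, LiPS-57 and LiPS-45 ranged from 18 to 19, from 17 to 21 and from 17 to 21. The count of 20 for any difference among the 4 lines ranged from 15 (without LiPS-50 replicate 1) to 20. For competence, 8 in place of 0 members passed when the spread between cultures was the only error, since that error leaves out the spread between lines. The type IV median over LiPS-57 was 0.15 with quantile normalization and 0.16 with median centring, and over LiPS-45 it was 0.15 with either; the cause was not tested. With 1 culture left out, the type IV median ranged from 0.17 to 0.22 over LiPS-47, from 0.19 to 0.25 over LiPS-57 and from 0.18 to 0.24 over LiPS-45. That of the other types ranged from 0.10 (without LiPS-50 replicate 2) to 0.20 over LiPS-47 and from 0.14 to 0.25 over LiPS-45. Among the lines between which no collagen passed, the fibrillar median ranged from -0.16 to -0.015 for LiPS-47 minus LiPS-45 and from -0.078 to 0.033 for LiPS-57 minus LiPS-45. The type IV median ranged from -0.059 to 0.0035 for LiPS-47 minus LiPS-45 and from -0.019 to 0.038 for LiPS-47 minus LiPS-57. The array gives no detection call, so what signal limits was not tested; of the 13 members with a mean below the median of all tested probe sets, none passed.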

Other observations

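The order of cultures was set side by side for the 23 collagens that passed in no pair and the 21 that did. LiPS-57 replicate 1 was the lowest culture of its line in 13 of the 23 and 12 of the 21, and LiPS-45 replicate 3 in 12 of the 23 and 14 of the 21. LiPS-50 replicate 3 was the lowest culture of its line in 14 of the 23 and replicate 2 the highest in 16, whereas replicate 2 was the lowest in 16 of the 21. In LiPS-47, replicate 1 was the lowest in 16 and replicate 3 the highest in 15, whereas replicate 3 was the lowest in 16 of the 21 called members. In LiPS-45, replicate 1 was the highest in 15 of the 23 and replicate 2 the highest in 17 of the 21. The groups of members were defined by the calls between lines, and the difference between both orders was not tested. Such orders were not counted over all probe sets.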
